A study of Sus scrofa with 8 samples.

Results

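Deubiquitinases are the proteases that remove ubiquitin, the small protein that ubiquitin ligases attach to other proteins to mark them for the proteasome or to change what they do. Ubiquitin-specific proteases (USP) form the largest family, ovarian tumour proteases (OTU) often prefer a particular type of ubiquitin chain, and ubiquitin C-terminal hydrolases (UCH) process small adducts and chain ends. In skeletal muscle the ubiquitin-proteasome system breaks down much of the contractile apparatus during fasting and disuse, and loss of the deubiquitinase Usp19 spares muscle mass in wasting models in mice. The genes described here are those named USP, OTUD, OTUB or UCHL plus a number in the deposited table, apart from the interferon-induced USP18, with a mean of at least 1 FPKM over the 8 libraries. The rule matched 57 genes, of which 43 passed the level and 14 did not, among 9821 genes of 23235 that passed it in the whole table. The choice used names and mean levels over both groups and no comparison between them. By its name the rule also takes USP6NL, a regulator of Rab GTPases and no peptidase, which lay below the level at 0.54 FPKM.

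The tissue was longissimus dorsi, a muscle along the spine, taken from weaned crossbred piglets (Duroc x Landrace x Yorkshire) that were 28 days old at weaning and shared 1 basal diet. After 5 days of adaptation, the melatonin group was gavaged for 23 days, once daily and fasted, with 5 mg melatonin per kg body weight dissolved in 10 mL sterile saline, and the control group with that volume of saline alone. Each group had 6 randomised animals, and 4 melatonin and 4 control poly(A) libraries were analysed. The sample labels carry replicate numbers but no animal identity, so p-values measure the spread between these libraries, which may in part be technical.

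Total counts ran from 53891623 to 60629098 in melatonin libraries and from 53471667 to 58930078 in control libraries. The 43 genes took 0.165 to 0.224% of the counts in melatonin libraries and 0.163 to 0.194% in control libraries. Muscle fibre markers (5 tested, 0 with a fold change above 0) summed to 82160, 100000, 77060 and 98110 FPKM in melatonin replicates 1 to 4. In control libraries they summed to 94070 to 109000 FPKM. Adipocyte markers summed to 219, 73.1, 194 and 13.7 FPKM in melatonin replicates 1 to 4 and to 21.8 to 126 FPKM in control libraries. Of 10 fibroblast and tendon markers, 9 had a fold change above 0, against 49.8% of all genes tested. An unadjusted p under 0.05 in edgeR was found for 7, against 10.5% of all genes. They summed to 8979, 695, 2775 and 692 FPKM in melatonin replicates 1 to 4 and to 502 to 986 FPKM in control libraries. Melatonin replicates 1 and 3 thus stand apart in the fibroblast and tendon sum, with COL1A1 at 3457 and 913 FPKM, but not in every marker of it. COL3A1, LUM and POSTN in replicate 3 and POSTN in replicate 1 lay below control replicate 1. The scaling factors (trimmed mean of M values, TMM) of melatonin replicates 1 and 3 were both 1.185. They were 0.923 and 0.866 in melatonin replicates 2 and 4 and 0.851 to 1.02 in controls. Deposited FPKM values carry no such factor, so FPKM values of these 2 libraries stand higher against the others than the scaled counts that were tested. In bulk RNA, fewer cells of a type and less RNA per cell cannot be told apart.

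No gene of the family passed the test for a difference between melatonin and control muscle, and the fold changes were mostly small. In edgeR's quasi-likelihood test 0 of 43 genes passed an adjusted p of 0.05 (smallest adjusted p = 0.442), as did 0% of all 9821 genes tested, and DESeq2 also called 0 of 43, against 0.662% of all genes. At an unadjusted p under 0.05, 4 of 43 genes (9.3%) were found in edgeR and 4 in DESeq2, against 10.5% of all genes in edgeR and 12.3% in DESeq2, so the family's share lay at the background. Of these genes USP54, USP25 and USP1 had the higher values after melatonin (3 of 43, against 6.67% of all genes) and USP2 the lower (1 of 43, against 3.84%). Without melatonin replicate 3 the count was 0 of 43, against 5.78% of all genes, and without replicate 2 it was 1 of 43, against 8.64%. Without melatonin replicate 4 it was 6 of 43, against 19.2% of all genes. Without replicates 1 and 3 together it was 3 of 43, against 4.83% of all genes, and the 3 genes were OTUD1, OTUD7B and USP54.

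The log2 fold change, melatonin over control, was above 0 in 24 of the 43 genes and below 0 in 19, against 49.8% above 0 among all genes. Its median was 0.041, against -0.001 over all genes tested, and it ran from -0.67 for OTUD1 to 0.95 for USP54. Its median size without regard to sign was 0.10, against 0.19 over all genes. In 40 of 43 genes the 95% interval lay within -1 and 1 on the log2 scale, against 79.8% of all genes, and USP54, OTUD1 and UCHL1 were the exceptions. The interval of most of these genes thus leaves out a doubling or a halving of the RNA at this depth and number of libraries, but not smaller differences.

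**Figure D1:**
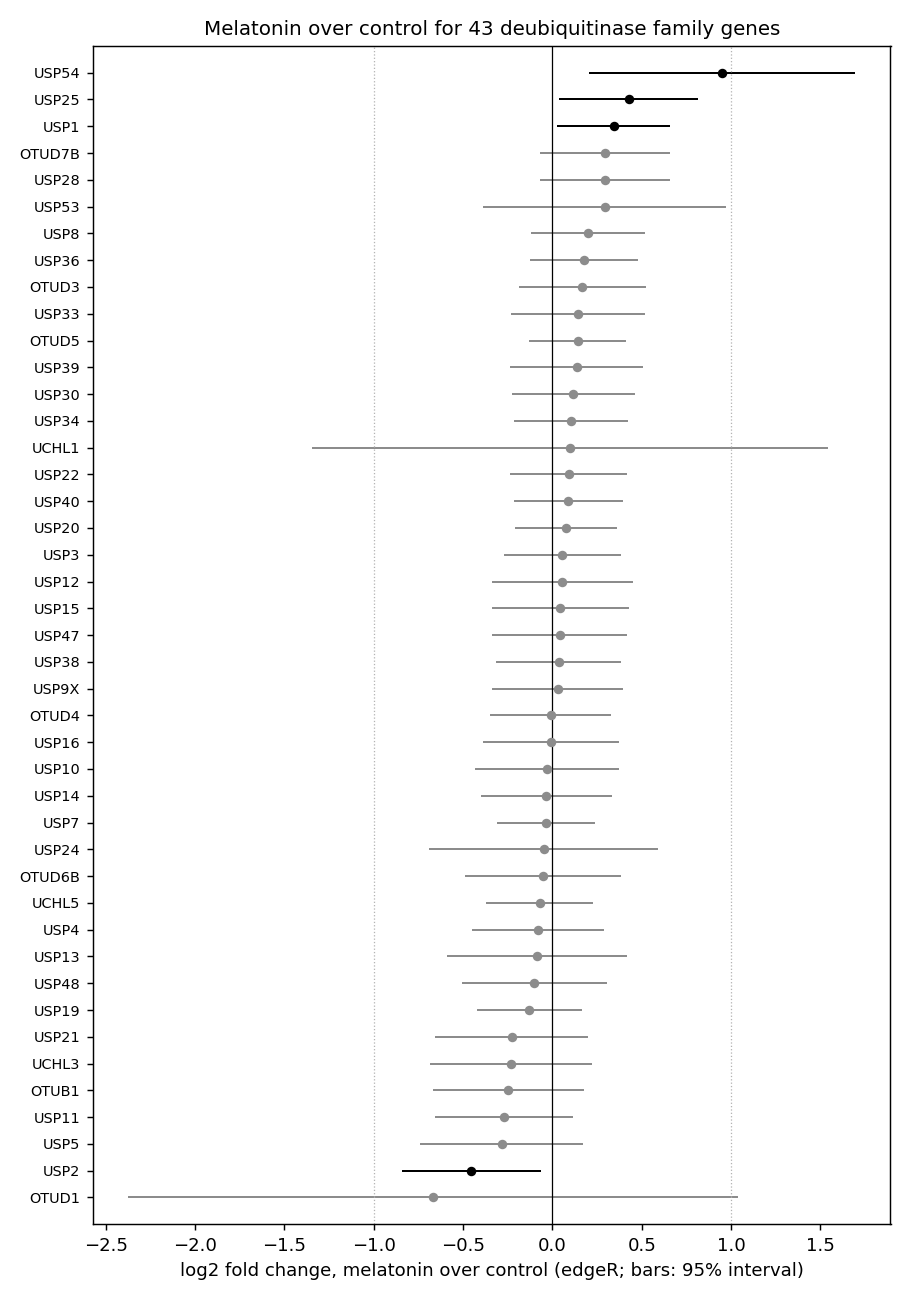
Log2 fold change, melatonin over control, for the 43 genes (points, edgeR) with 95% intervals (bars); black marks the 4 genes at an unadjusted p under 0.05 and dotted lines mark -1 and 1. Most intervals cross 0, USP54, USP25 and USP1 lie above it, USP2 lies below it, and the intervals of OTUD1 and UCHL1 are the widest.

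Levels spread over a wide range, and FPKM, which is scaled by transcript length, allows genes to be ranked. The mean over 8 libraries was at least 10 FPKM in 12 genes, from 5 to 10 in 10 genes and below 5 in 21, with a median of 5.27 FPKM, against 4.20 FPKM over all genes tested. USP28 was the highest at 32.6 FPKM, followed by USP13 at 21.7, USP2 at 17.5, USP25 at 17.3, USP47 at 17.1, USP7 at 16.8, UCHL5 at 15.5 and USP24 at 13.8 FPKM. These 8 genes held 44.7% of the family's summed mean of 341 FPKM. Their neighbours in this order are not separated by their spread: USP2, USP25, USP47 and USP7 overlapped in every pairwise range over libraries. At the lower limit, USP3 (1.38 FPKM) and USP53 (1.47) lay just inside, and USP37 (0.83) and USP46 (0.80) just outside. The 14 genes below it ran from 0.014 FPKM for USP44 to 0.83 and included OTUB2, OTUD7A and USP27X.

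**Figure D2:**
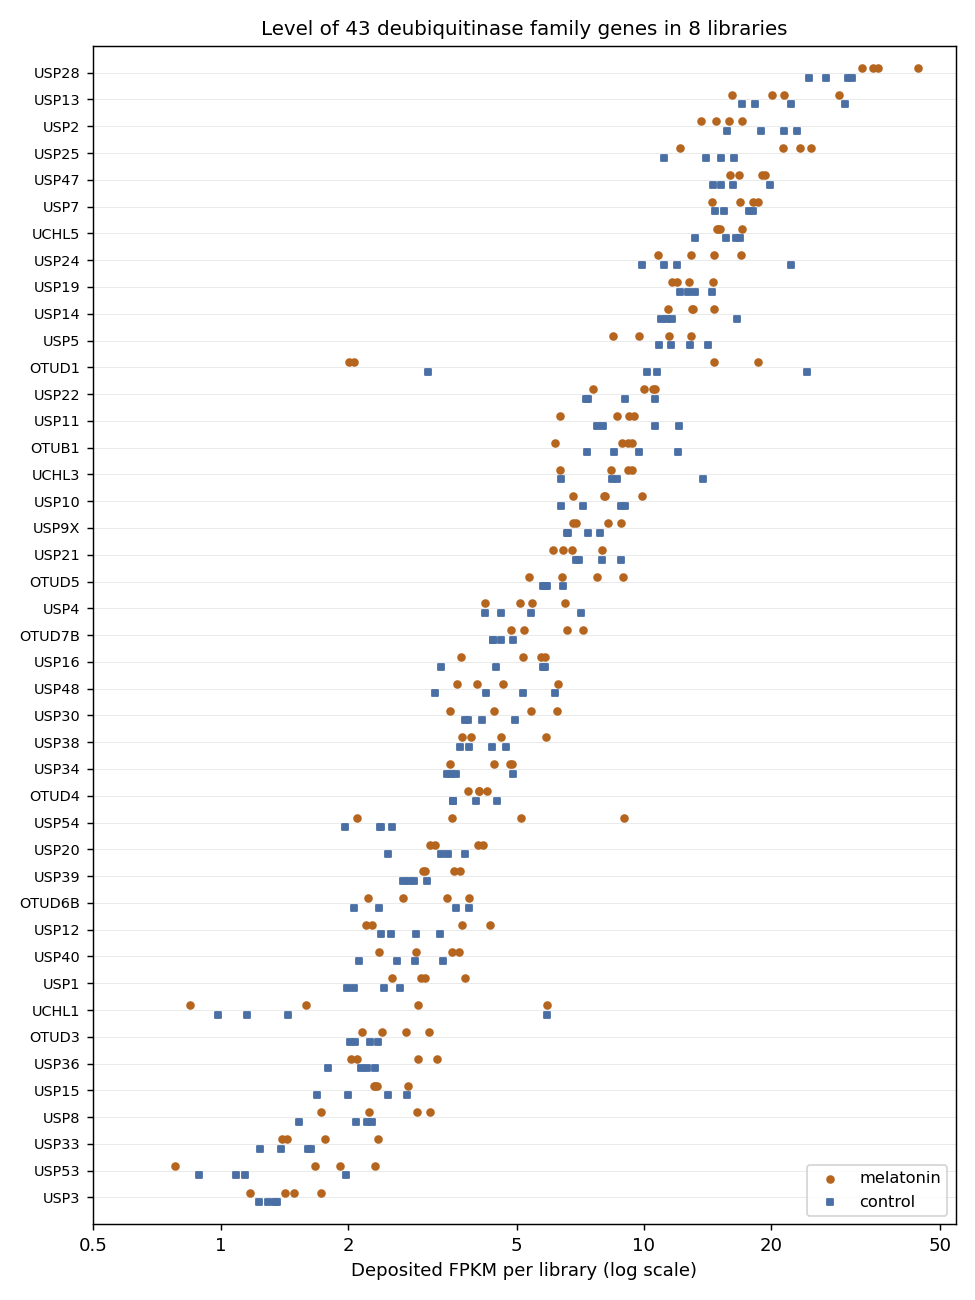
Deposited FPKM (log scale) of the 43 genes in the 4 melatonin libraries (circles) and the 4 control libraries (squares), ordered by mean level. USP28, at a mean of 32.6 FPKM, is the 1 gene of 43 whose melatonin and control FPKM values do not overlap, against 2.2% of all genes. On the TMM-scaled counts its groups overlap. OTUD1 and UCHL1 spread most within both groups.

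USP54 had the smallest p of the family. It is a relative of USP53 and was long classed as lacking peptidase activity, a view that later work revised. It lies at chromosome 14, 76307230 to 76377006 (ENSSSCG00000010302, Sscrofa11.1). USP54 measured 3.52, 5.13, 8.95 and 2.10 FPKM in melatonin replicates 1 to 4, against 2.54, 2.39, 2.37 and 1.97 FPKM in control replicates 1 to 4. Controls were close together, melatonin replicates 3, 2 and 1 lay above all of them, and replicate 4 lay among them. The log2 fold change was 0.95 ± 0.33 (SE, n = 4 each; edgeR, adjusted p = 0.442). It was 0.61 without melatonin replicate 3 and 0.18 without melatonin replicates 2 and 3 (edgeR, adjusted p = 0.983). Without replicates 1 and 3, which had the highest fibroblast and tendon sums, it was 0.73 (edgeR, adjusted p = 0.952). That fit keeps replicate 2, at 5.13 FPKM, and a cause was not tested. Replicates 2 and 3 held the highest USP54 values and were left out together after these had been seen, so a smaller fold change without them follows from that choice.

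The muscle atrophy ligases FBXO32 and TRIM63, which attach ubiquitin to contractile and regulatory proteins, had their highest values in the same libraries. FBXO32 measured 13.5, 25.4, 55.6 and 8.91 FPKM in melatonin replicates 1 to 4, against 6.39 to 12.3 FPKM in controls, and TRIM63 measured 78.6, 142, 322 and 72.1 FPKM, against 38.9 to 96.7 FPKM in controls. In FPKM the order of the melatonin libraries, 3, 2, 1 and 4, was the one seen for USP54. Melatonin replicate 3 had the highest FPKM of the 8 libraries in 27.9% of all genes. The share of all genes with the whole order was not computed. USP53, OTUD7B, USP4 and UCHL3 also had the order 3, 2, 1 and 4, so it is not particular to USP54 and the ligases. On the TMM-scaled counts USP54 and FBXO32 kept this order. TRIM63 did not, with 119 CPM in melatonin replicate 1 and 148 CPM in melatonin replicate 4. The log2 fold changes were 1.26 ± 0.45 for FBXO32 (edgeR, adjusted p = 0.446) and 1.00 ± 0.44 for TRIM63 (edgeR, adjusted p = 0.473), and without melatonin replicates 2 and 3, again the highest libraries, they were 0.12 and 0.061. USP53, the paralog of USP54, measured 1.67, 1.92, 2.31 and 0.78 FPKM in melatonin replicates 1 to 4 and 1.09, 0.89, 1.14 and 1.98 FPKM in control replicates 1 to 4. Its groups overlapped, and its log2 fold change was 0.29 ± 0.30 (edgeR, adjusted p = 0.724). USP39, a splicing factor of the family without known peptidase activity, measured 3.01 to 3.68 FPKM after melatonin and 2.69 to 3.08 FPKM in controls (log2 fold change 0.14 ± 0.16).

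USP25 and USP28 are close relatives, and both were among the 4 genes of the family with the highest levels. In humans USP25 has a muscle-specific isoform, and USP28 acts in the response to DNA damage and stabilises the transcription factor MYC. USP25 measured 23.4, 21.3, 24.8 and 12.1 FPKM in melatonin replicates 1 to 4, against 15.2, 11.2, 16.4 and 13.98 FPKM in control replicates 1 to 4. Melatonin replicates 1 to 3 lay above every control and replicate 4 lay within the controls. The log2 fold change was 0.43 ± 0.17 (edgeR, adjusted p = 0.453). The unadjusted p exceeded 0.05 when melatonin replicate 1, 2 or 3 or control replicate 1, 2 or 4 was left out, at up to 0.0939, and it was 0.00308 without melatonin replicate 4, where the fold change was 0.56. This p was 0.149 without melatonin replicates 1 and 3. USP28 measured 35.8, 32.7, 44.4 and 34.8 FPKM in melatonin replicates 1 to 4, against 24.6, 30.4, 31.0 and 26.9 FPKM in control replicates 1 to 4. It was the 1 gene of 43 whose groups did not overlap in FPKM, against 2.2% of all genes (1.13% with melatonin higher and 1.07% with melatonin lower), and on the TMM-scaled counts they overlapped, as did those of all 43 genes, against 4.25% of all genes without overlap. The log2 fold change was 0.29 ± 0.16 (edgeR, adjusted p = 0.53).

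USP1 removes ubiquitin from the DNA repair proteins FANCD2 and PCNA, together with its partner WDR48. It measured 3.04, 2.97, 3.79 and 2.53 FPKM in melatonin replicates 1 to 4, against 2.65, 2.07, 2.43 and 1.99 FPKM in control replicates 1 to 4. In FPKM the groups overlapped at melatonin replicate 4 and control replicate 1. On the TMM-scaled counts they overlapped at melatonin replicate 1 (17.35 CPM) and control replicate 1 (17.49 CPM). The log2 fold change was 0.34 ± 0.14 (edgeR, adjusted p = 0.46). The unadjusted p exceeded 0.05 without melatonin replicate 2 or 3 or control replicate 2, 3 or 4, at up to 0.0824. WDR48 measured 2.75 to 5.76 FPKM after melatonin and 2.90 to 3.75 FPKM in controls (log2 fold change 0.30 ± 0.17, edgeR, adjusted p = 0.545). Of the genome maintenance list, 4 of 6 genes were tested, 3 with a fold change above 0, against 49.8% of all genes. USP1 was the 1 at an unadjusted p under 0.05 in edgeR, against 10.5% of all genes. With 4 genes tested, these counts are no result about the list.

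USP2, a gene with strong daily rhythms in mouse tissues that acts on clock proteins and membrane receptors, was the only family gene with a lower value after melatonin at an unadjusted p under 0.05. It lies at chromosome 9, 46563482 to 46571730 (ENSSSCG00000015120). USP2 measured 17.0, 13.7, 15.9 and 14.8 FPKM in melatonin replicates 1 to 4, against 18.9, 21.4, 22.9 and 15.7 FPKM in control replicates 1 to 4. Control replicate 4 lay inside the melatonin range and the other 3 controls lay above all melatonin libraries. The log2 fold change was -0.45 ± 0.17 (edgeR, adjusted p = 0.453), and over 20 alternatives it stayed between -0.57 and -0.33. The unadjusted p exceeded 0.05 without melatonin replicate 2 or 3 or control replicate 2 or 3, at up to 0.0849, and was 0.137 without melatonin replicates 1 and 3. The hour at which muscle was sampled is not given in the sources used here.

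**Figure D3:**
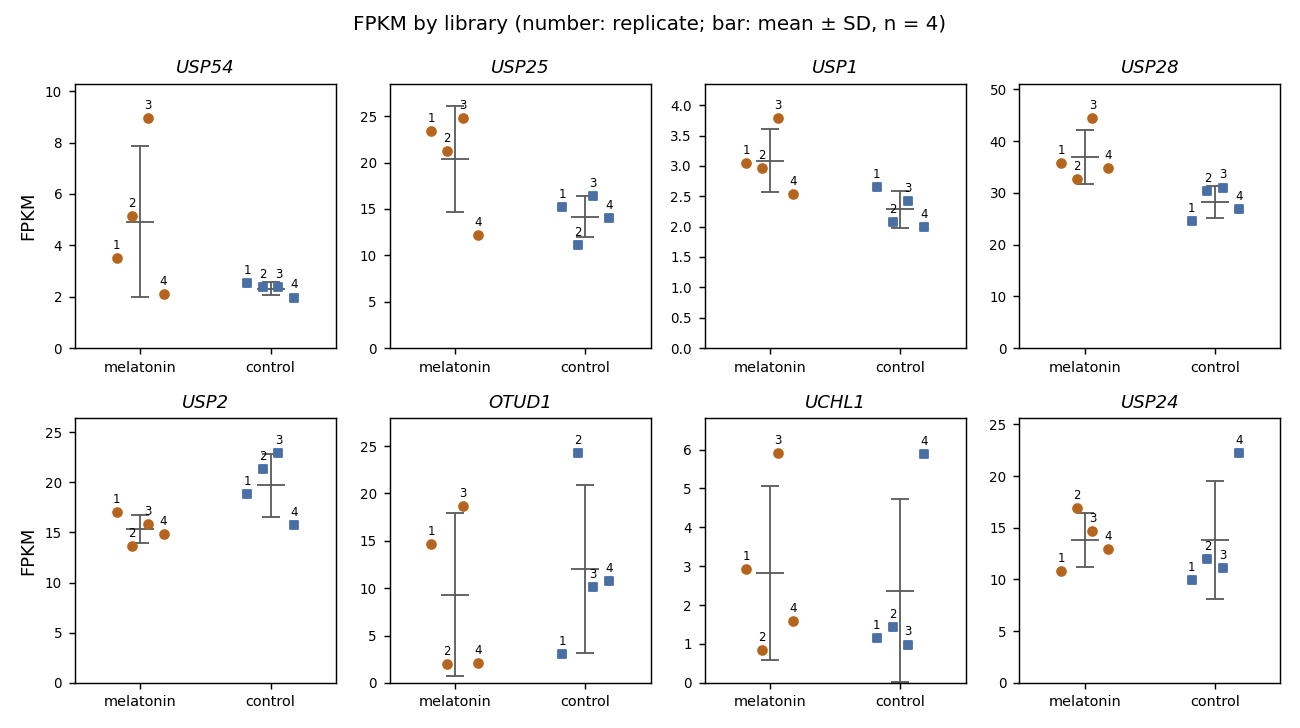
FPKM of 8 genes in the melatonin libraries (circles, left) and control libraries (squares, right), numbered by replicate, with mean ± SD (n = 4). Melatonin replicate 4 lies among the controls for USP54 and USP25, control replicate 4 lies apart for UCHL1 and USP24, and OTUD1 differs widely within both groups.

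Deubiquitinases of the proteasome and of free ubiquitin chains were all measured, and 0 of 4 reached an unadjusted p of 0.05, against 10.5% of all genes. In lists this short, here and in the groups that follow, such a share can leave 0 genes, so a count of 0 is no result about the list. USP14 and UCHL5 sit on the proteasome and trim chains from arriving proteins, USP5 takes apart unanchored chains, and USP13 is a paralog of USP5 with weak activity of its own. USP14 measured 13.1, 11.4, 14.6 and 13.0 FPKM in melatonin replicates 1 to 4, against 11.3, 11.7, 10.98 and 16.6 FPKM in control replicates 1 to 4, and UCHL5 measured 14.9 to 17.1 FPKM, against 13.2 to 16.8 FPKM. The log2 fold change was -0.034 ± 0.16 for USP14 and -0.072 ± 0.13 for UCHL5, and both signs changed under several alternatives, so no direction is given. USP14 overlaps THOC1 (6.12 FPKM) on the opposite strand. The libraries were strand-marked with dUTP, and the strand setting of the counting is not given in the sources used here, so reads of such overlapping pairs may not be separable. USP5 measured 9.76, 8.46, 11.5 and 12.9 FPKM in melatonin replicates 1 to 4, against 11.6, 12.8, 10.9 and 14.2 FPKM in control replicates 1 to 4 (log2 fold change -0.28 ± 0.20, edgeR, adjusted p = 0.604, and -0.50 without melatonin replicate 4). USP13 varied more within the groups than between them, at 16.1, 21.4, 28.8 and 20.1 FPKM after melatonin and 29.9, 18.3, 17.1 and 22.2 FPKM in controls (log2 fold change -0.087 ± 0.22, with a sign that also changed under alternatives).

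USP19, anchored in the endoplasmic reticulum and linked to muscle wasting in mice, was one of the steadier genes. It measured 12.8, 11.6, 14.6 and 12.0 FPKM in melatonin replicates 1 to 4, against 13.2, 12.7, 12.2 and 14.5 FPKM in control replicates 1 to 4. The groups overlapped almost wholly, with a log2 fold change of -0.13 and a 95% interval of -0.42 to 0.16 (edgeR, adjusted p = 0.713). The nearest gene of the family on chromosome 13, USP4, lies 111 kb away and measured 4.20 to 6.52 FPKM after melatonin and 4.21 to 7.09 FPKM in controls. USP4, USP11 and USP15 are paralogs with roles in immune and growth factor signalling, and of these USP11 had the lowest fold change, at -0.27 ± 0.17 (edgeR, adjusted p = 0.569).

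Chromatin deubiquitinases, which take ubiquitin off histones H2A and H2B or act on nuclear regulators, had 6 of 11 genes past the level and 0 at an unadjusted p under 0.05, with fold changes from -0.23 to 0.18. USP7, which stabilises the p53 ligase MDM2, measured 18.1, 16.9, 18.6 and 14.5 FPKM in melatonin replicates 1 to 4, against 15.5, 14.7, 17.7 and 18.1 FPKM in control replicates 1 to 4. Its 95% interval, -0.30 to 0.23, is among the narrower ones, and the sign of its fold change depends on the setting. USP22, the deubiquitinase of the SAGA coactivator complex, measured 10.6, 10.0, 10.5 and 7.56 FPKM after melatonin and 7.38, 7.31, 9.01 and 10.6 FPKM in controls (log2 fold change 0.091 ± 0.14). Its relatives USP27X and USP51 were at 0.24 and 0.036 FPKM, so USP22 carried most of the RNA of this trio. USP36, a nucleolar enzyme, had a fold change of 0.18 ± 0.13 (edgeR, adjusted p = 0.62). USP16, which overlaps CCT8 (16.2 FPKM) on the opposite strand, had one of -0.009 ± 0.17.

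At mitochondria, USP30 sits in the outer membrane and opposes parkin, the ligase that tags damaged mitochondria for removal. USP30 measured 5.42, 4.42, 6.22 and 3.48 FPKM in melatonin replicates 1 to 4, against 4.15, 3.85, 3.77 and 4.97 FPKM in control replicates 1 to 4, and the groups overlapped (log2 fold change 0.12 ± 0.15, edgeR, adjusted p = 0.779). USP8, which sorts receptors at endosomes and also acts on parkin, had a fold change of 0.20 ± 0.14 (edgeR, adjusted p = 0.602), and USP15 one of 0.045 ± 0.17. In the endosome and receptor list, 6 of 8 genes were in the table and tested. Of these 4 were above 0 and 2 below, against 49.8% above 0 among all genes. USP2 was the 1 gene at an unadjusted p under 0.05 in edgeR, against 10.5% of all genes. With 6 genes tested, these counts are no result about the list.

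The OTU family had 7 tested genes, 3 above 0 and 4 below, against 49.8% above 0 among all genes. Their median was -0.009, and 0 had an unadjusted p under 0.05. OTUD1, at chromosome 10, 51619680 to 51621116, stood out by its spread. It measured 14.6, 2.01, 18.6 and 2.06 FPKM in melatonin replicates 1 to 4, against 3.09, 24.3, 10.2 and 10.7 FPKM in control replicates 1 to 4. High and low libraries occurred in both groups, the highest of the 8 was 12.1 times the lowest, and the log2 fold change of -0.67 had a 95% interval of -2.37 to 1.03 (edgeR, adjusted p = 0.748). It was 0.062 without control replicate 2 and -2.53 without melatonin replicates 1 and 3 (edgeR, adjusted p = 0.952). OTUB1, which removes chains marking proteins for the proteasome and also blocks ubiquitin-conjugating enzymes, measured 9.17, 6.16, 9.36 and 8.89 FPKM after melatonin and 9.75, 8.51, 7.32 and 12.1 FPKM in controls (log2 fold change -0.25 ± 0.19, edgeR, adjusted p = 0.626). It overlaps MACROD1, at 65.5 FPKM, on the opposite strand, with the same limit as for USP14. OTUD7B measured 5.21, 6.59, 7.18 and 4.86 FPKM after melatonin and 4.41, 4.60, 4.91 and 4.39 FPKM in controls, with a fold change of 0.30 ± 0.16 (edgeR, adjusted p = 0.527). Its paralog OTUD7A lay below the level, at 0.33 FPKM. The list of NF-kB and innate immunity regulators, which holds several of these genes with USP4, USP11 and USP21, had 6 of 8 genes tested. Of these 1 was above 0 and 5 below, against 49.8% above 0 among all genes, and 0 had an unadjusted p under 0.05. The median was -0.24, against -0.001 over all genes. With 6 genes tested and lists chosen with earlier results known, this split is no result about the list.

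The 3 UCH genes differed in level and in spread. UCHL3, which also acts on the ubiquitin-like protein NEDD8, measured 8.36, 9.16, 9.37 and 6.33 FPKM in melatonin replicates 1 to 4, against 8.64, 6.35, 8.42 and 13.7 FPKM in control replicates 1 to 4 (log2 fold change -0.23 ± 0.20). UCHL1, abundant in neurons, measured 2.92, 0.85, 5.92 and 1.59 FPKM in melatonin replicates 1 to 4, against 1.152, 1.44, 0.99 and 5.89 FPKM in control replicates 1 to 4. Its 2 highest libraries, melatonin replicate 3 and control replicate 4, were in different groups, and the log2 fold change of 0.098 had a 95% interval of -1.34 to 1.54. The fold change was 1.01 without control replicate 4 (edgeR, adjusted p = 0.537) and -0.45 without melatonin replicate 3. Nerve and Schwann cell markers, 4 of 6 in the table, summed to 3.94, 18.4, 10.4 and 4.33 FPKM in melatonin replicates 1 to 4 and to 5.77, 7.58, 11.9 and 11.7 FPKM in control replicates 1 to 4. The highest nerve sum was in melatonin replicate 2, the library with the lowest UCHL1.

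Apart from these few genes, the family was steady between libraries of the same group. The biological coefficient of variation, edgeR's estimate of the spread between libraries beyond counting noise, had a median of 19.8% over the 43 genes, against 22.5% over all genes tested and 21.6% over the 8411 genes within the family's range of mean count. It lay below the median of all genes in 36 of 43 genes (83.7%, against 50% of all genes), a description without a test. OTUD5, which restrains interferon signalling, was at 15.9%, USP20 at 16.6% and USP7 at 16.9%. The high end held OTUD1 at 71.6%, UCHL1 at 62.0%, USP54 at 33.6%, USP53 at 31.7% and USP24 at 30.1%. OTUD1 and UCHL1 lay at the percentiles 99.0 and 98.5 of all genes.

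**Figure D4:**
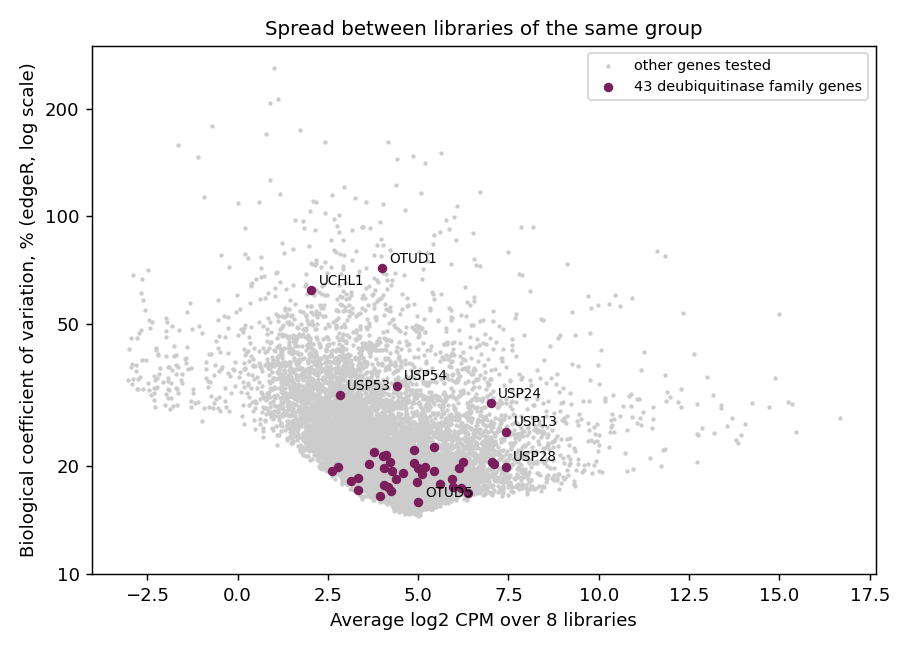
Biological coefficient of variation (%, log scale) against average log2 CPM for all genes tested (grey) and the 43 genes (purple). Of the 43, 36 lie below the median of all genes, 22.5%, with OTUD5 lowest at 15.9%, OTUD1 highest at 71.6% and UCHL1 at 62.0%.

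Libraries also differed together. Melatonin replicate 3 had the highest FPKM of the 8 libraries in 19 of 43 genes, against 27.9% of all genes, and the highest TMM-scaled value in 4 of 43, against 11.4% of all genes. Control replicate 4 had the highest FPKM in 10 of 43 genes, against 17% of all genes, and control replicate 2 had the lowest in 15 of 43, against 29.1% of all genes. On TMM-scaled log2 counts, averaged over the family, the libraries deviated from the control mean by -0.059, 0.046, 0.12 and 0.003 for melatonin replicates 1 to 4, against -0.087, 0.059, -0.055 and 0.084 for control replicates 1 to 4. The groups overlapped, with libraries above and below 0 in both.

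The rest of the pathway was read against the same background. A further list held 28 deubiquitinases of other names and proteins related to them. Among these, USPL1 acts on SUMO and COPS5 on NEDD8, PAN2 shortens poly(A) tails, and PSMD7, COPS6 and EIF3H are subunits without peptidase activity. Of the 28, 23 were tested, 13 above 0 and 10 below, with a median of 0.06 and 1 at an unadjusted p under 0.05, against 10.5% of all genes. That gene was ZUP1, which cuts chains at sites of DNA damage, at 1.81, 1.64, 1.99 and 1.22 FPKM in melatonin replicates 1 to 4, against 1.153, 0.94, 1.29 and 0.74 FPKM in control replicates 1 to 4 (log2 fold change 0.59 ± 0.23, edgeR, adjusted p = 0.453). In FPKM melatonin replicate 4 lay below control replicate 3, while on the TMM-scaled counts the groups did not overlap, at 2.95 to 3.73 CPM after melatonin and 1.53 to 2.71 CPM in controls, against 4.25% of all genes without overlap. STAMBPL1, an endosomal metalloprotease, measured 0.56 to 1.41 FPKM after melatonin, against 1.28 to 1.51 FPKM in control replicates 1 to 3 and 6.56 FPKM in control replicate 4. Its fold change was -1.23 ± 0.59 (edgeR, adjusted p = 0.49), and -0.33 without control replicate 4. The ubiquitin gene UBB, at 327 to 540 FPKM after melatonin and 354 to 450 FPKM in controls, had a fold change of 0.043 ± 0.15.

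A list of 13 genes joined partners of the family's enzymes with the ligases FBXO32 and TRIM63, which are not partners of a family enzyme by any source used here. Of these 12 were tested, 6 above 0 and 6 below, and 3 had an unadjusted p under 0.05, against 10.5% of all genes. The list was chosen with earlier results of these data known, so this count is no result about it. ADRM1, the proteasome subunit that holds UCHL5, measured 15.0, 11.8, 16.9 and 18.3 FPKM in melatonin replicates 1 to 4, against 18.5, 20.5, 17.8 and 36.7 FPKM in control replicates 1 to 4. Its log2 fold change was -0.65 ± 0.26 (edgeR, adjusted p = 0.453), the lowest of the list, and -0.39 without control replicate 4, the highest library (edgeR, adjusted p = 0.543). UCHL5 itself was at -0.072 ± 0.13. The other 2 at an unadjusted p under 0.05 were FBXO32 and TRIM63.

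By their deposited annotation all 43 genes carry the terms protein deubiquitination and cysteine-type deubiquitinase activity, which includes USP39, USP53 and USP54. Nucleus is annotated for 26 and cytosol for 28 of them, and removal of chains linked through lysine 48, the usual proteasome signal, for 16. The 57 genes lie on 15 autosomes and the X chromosome, with 7 on chromosome 6 and 5 on the X chromosome, and 5 neighbouring pairs lie within 2 Mb of each other.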

How the data were processed

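Poly(A) RNA of 8 muscle libraries was sequenced as strand-marked paired ends, per the labels' protocols. The authors deposited 1 table with a count and an FPKM value per gene and library, per the file headers. The submitters' processing notes list FastQC, StringTie, DESeq2 and the build Sscrofa11.1, with neither role nor version. No source used here gives the aligner, the annotation release or the strand setting. All value columns matched a sample (0 left over) and 0 rows had a blank gene.

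Genes with a mean of at least 1 FPKM over the 8 libraries were tested on the deposited counts with edgeR 4.0.16 (legacy quasi-likelihood F test, two-sided, TMM scaling, no covariate, R 4.3.3), and p-values were adjusted by Benjamini-Hochberg over all 9821 genes. Fold changes are log2, melatonin over control, with SE and 95% intervals from the fit. Alternatives were DESeq2 1.42.0, limma 3.58.1 on log2(FPKM + 1) and log2(FPKM + 0.1), voom with library weights, other scalings and level filters, a replicate block, and libraries left out. The procedure was tested on simulated data. Tables and plots used Python 3.11.15, NumPy 2.4.6, pandas 2.3.3 and Matplotlib 3.10.9.

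Totals of 53471667 to 60629098 counts per library set the counting precision. No pair of libraries agreed within sampling noise (smallest chi-square per degree of freedom 53.2). Values per library were to be given for up to 8 genes per direction at an unadjusted p under 0.05 and for 15 genes with known muscle, clock, proteasome or mitochondrial roles, 17 in all, and OTUD7B, USP53, USP11, USP8, USP36 and USP39 were added after their values had been seen, as were remarks on genes at the ends of the spread or of the levels. From other pathway lists up to 2 genes per direction with the smallest p were to be named. The genes, lists and rules were chosen with earlier results of these data known. Some results for other genes are not reported here. No sequences are printed.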

Additional observations from a re-analysis of the deposited data

Results flagged for a closer look

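In 7 of 86 groups of 4 values (43 genes in each of 2 groups), 1 library lay far from the other 3 by Dixon's ratio, past its 95% limit. Chance marks about 1 in 20 groups, and FPKM values of 1 library move together. After melatonin, USP15 was at 2.766 FPKM in replicate 3, against 2.305 to 2.342 in the other libraries of its group, UCHL5 was at 17.06 FPKM in replicate 3, against 14.85 to 15.12, and OTUB1 was at 6.161 FPKM in replicate 2, against 8.894 to 9.355. The other 4 values all belonged to control replicate 4. There USP34 was at 4.91 FPKM, against 3.421 to 3.597 in the other controls, and USP14 was at 16.57 FPKM, against 10.98 to 11.65. UCHL1 was at 5.888 FPKM, against 0.986 to 1.441, and USP24 at 22.24 FPKM, against 9.919 to 11.99. USP24 and USP34 are among the largest proteins of the family.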

How the results depend on the processing

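The count of family genes called at an adjusted p under 0.05 was 0 under every alternative run, and the family's median fold change stayed between -0.023 and 0.113. Over all genes DESeq2 called 65, and edgeR called 0 to 15 with 1 library left out, 15 without melatonin replicate 4. The count higher after melatonin at an unadjusted p under 0.05 was 3, and 0 to 3 with 1 library left out (0 without melatonin replicate 3). It was 0 without melatonin replicates 2 and 3 together, where 4.99% of all genes passed in either direction. The count lower was 1, and 0 to 3 with 1 library left out. With 1 library left out, 5.78 to 19.2% of all genes passed in either direction. The count lower was 0 without melatonin replicates 2 and 3 and in both limma fits, where 5.66 and 5.69% of all genes passed. It was 2 with voom weights, where 4 were higher and 16.5% of all genes passed. The replicate numbers do not establish pairs (same-number correlations of 0.181, 0.069, 0.169 and -0.027), and with the replicate block the counts were 2 higher and 0 lower, against 10.8% of all genes in either direction.

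Signs turned for genes with fold changes near 0 or a wide spread. In limma on log2(FPKM + 1) and log2(FPKM + 0.1), UCHL5 was at 0.000311 and 0.00057, USP14 at 0.0538 and 0.0584, and USP7 at 0.0426 and 0.0448. With a mean of at least 5 FPKM, USP14 was at 0.00736 and USP7 at 0.00554. With voom weights, USP13 was at 0.00504 and USP14 at 0.0561. Without melatonin replicates 1 and 3, UCHL1 was at -0.809, UCHL5 at 0.0692, USP13 at 0.0405, USP14 at 0.0643 and USP7 at 0.0384. Without replicates 2 and 3, UCHL1 was at -0.144, USP14 at 0.00654 and USP53 at -0.152. With 1 library left out, OTUD1 ran from -1.192 to 0.0621, UCHL1 from -0.452 to 1.012, UCHL5 from -0.145 to 0.00453, USP13 from -0.198 to 0.0723 and USP14 from -0.123 to 0.0891. The cause was not tested. The limma fits on FPKM moved the median of all genes to 0.063 and 0.076, so their values lie higher by that shift.

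With 4 libraries per group and a median SE of 0.164, small fold changes of single genes were not detectable. Genes below the level filter are described by level only. The p-values cover the spread between these libraries.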
